A study of Mus musculus with 2 samples.

Results

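Tissue factor, thrombomodulin, the urokinase and tissue-type plasminogen activators, the urokinase receptor, a pair of serpins that inhibit plasminogen activators or thrombin, and thrombospondin 1 form the group of coagulation and plasminogen activator genes described here. The members were chosen by gene name (F3, Thbd, Plau, Plat, Plaur, Serpinb2, Serpine2 and Thbs1), and every probe on the arrays that carries one of these names was used. The 8 genes are 8 of the 28233 genes with a symbol on the arrays, and they were covered by 9 probes, since F3 had a second probe. All 8 were well above background in all 4 channels, which was true of 17199 genes in all.

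The cells were immortalized murine embryonic fibroblasts (MEF) of the genotype Rosa26ERT2 Cre: THOC5 (flox/flox) on a C57BL/6 x B6:129 Ola background, so that tamoxifen switches on the Cre recombinase in every cell type and removes the floxed Thoc5 alleles. THOC5 is a subunit of the THO complex, which links transcription to the processing and export of mRNA. Control cells, labelled wildtype, carried the same alleles and received no tamoxifen, and THOC5-depleted cells (called depleted cells) received tamoxifen for 2 days. In each condition, serum-starved cells (Cy3 channel) and cells given fetal calf serum for 1 h (Cy5 channel) were compared on 1 dual-color array, to ask how the loss of THOC5 alters the response to serum. The line is an immortalized culture with 1 array per condition, both on the same slide, so that tamoxifen, culture and array position cannot be told apart from the loss of THOC5, and no test between conditions could be made.

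Coagulation on a cell surface starts when tissue factor, the product of F3, binds factor VII, and thrombomodulin (Thbd) turns thrombin from a clotting enzyme into an activator of the anticoagulant protein C. Clots and matrix are removed by plasmin, which is cut from plasminogen by urokinase (Plau) or tissue-type activator (Plat). Urokinase is held at the cell surface by its receptor Plaur, and serpins such as PAI-2 (Serpinb2) and protease nexin 1 (Serpine2) restrain these proteases. In fibroblasts, these genes belong to the wound response, and several of them are known targets of serum and growth factors.

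The targeted gene and the identity of the cells were checked first. The Thoc5 signal was 4808 in unstimulated and 3047 in serum-treated control cells, against 546 and 455 in depleted cells, a log2 difference of -2.82 and -2.43 after scaling between the arrays (whether its probe lies in the deleted exons is not known here). The Gapdh signal differed between the arrays by 0.11 and 0.09 on the log2 scale. Of 11 fibroblast markers, 10 were well above background in every channel, and the summed signal of the list, scaled between the arrays, was 344041 in unstimulated control and 313751 in unstimulated depleted cells. Single fibroblast markers differed more in unstimulated cells, with Col3a1 2.19-fold, Pdgfra 2.43-fold, Fap 3.18-fold and Dcn 1.96-fold lower in depleted cells, while Col1a1, Vim and Fn1 differed by less than 1.1-fold. Lum was well above background on the control array alone. The endothelial markers Tek and Tie1, the epithelial marker Cdh1 and the platelet marker Pf4 were not well above background in any channel. The other markers of these lists were partly present, with 4 of 6 endothelial, 2 of 5 macrophage and blood, 2 of 5 epithelial and 2 of 3 megakaryocyte markers above background in every channel. The scaled sums ranged from 945 to 1061 for the endothelial, from 6014 to 10260.3 for the macrophage and blood, from 108 to 198 for the epithelial and from 227 to 312 for the megakaryocyte list. The macrophage and blood sum was higher in unstimulated depleted (8840.1) than in unstimulated control cells (6014), with Itgam, its brightest marker, 1.49-fold higher, and Cd68 was well above background on the depleted array alone (24.6 against 11.6). The part of such shifts in the members' differences was not tested. The array signals were of similar brightness, with a 75th percentile of 1063 and 1052 on the control array and 862 and 867 on the depleted array, and 0 spots were saturated.

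In control cells, 1 h of serum gave higher signals for 7 of the 8 genes, led by Serpinb2 (20.6-fold) and F3 (10.1-fold). In depleted cells the same 7 genes were still on the side of higher signal, but each by less, with Serpinb2 at 2.24-fold and F3 at 4.23-fold. Serpine2 was the exception, with a serum ratio slightly below 1 in both conditions. The serum ratio is the signal after serum over the signal before it on the same array, and the fold reduction is the ratio in control cells over the ratio in depleted cells. Over all genes, the median log2 serum ratio was -0.02 in control and -0.01 in depleted cells, and the median log2 fold reduction was -0.01. A ratio or fold reduction above 1 is thus common among all genes, whatever its size. Each member was read from 1 spot per array, so the error given with a value is the one the scanner software assigned to that spot, which is not a spread between cultures. The RNA is from whole cultures, in which fewer cells that express a gene and less RNA per cell cannot be told apart.

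**Figure D1:**
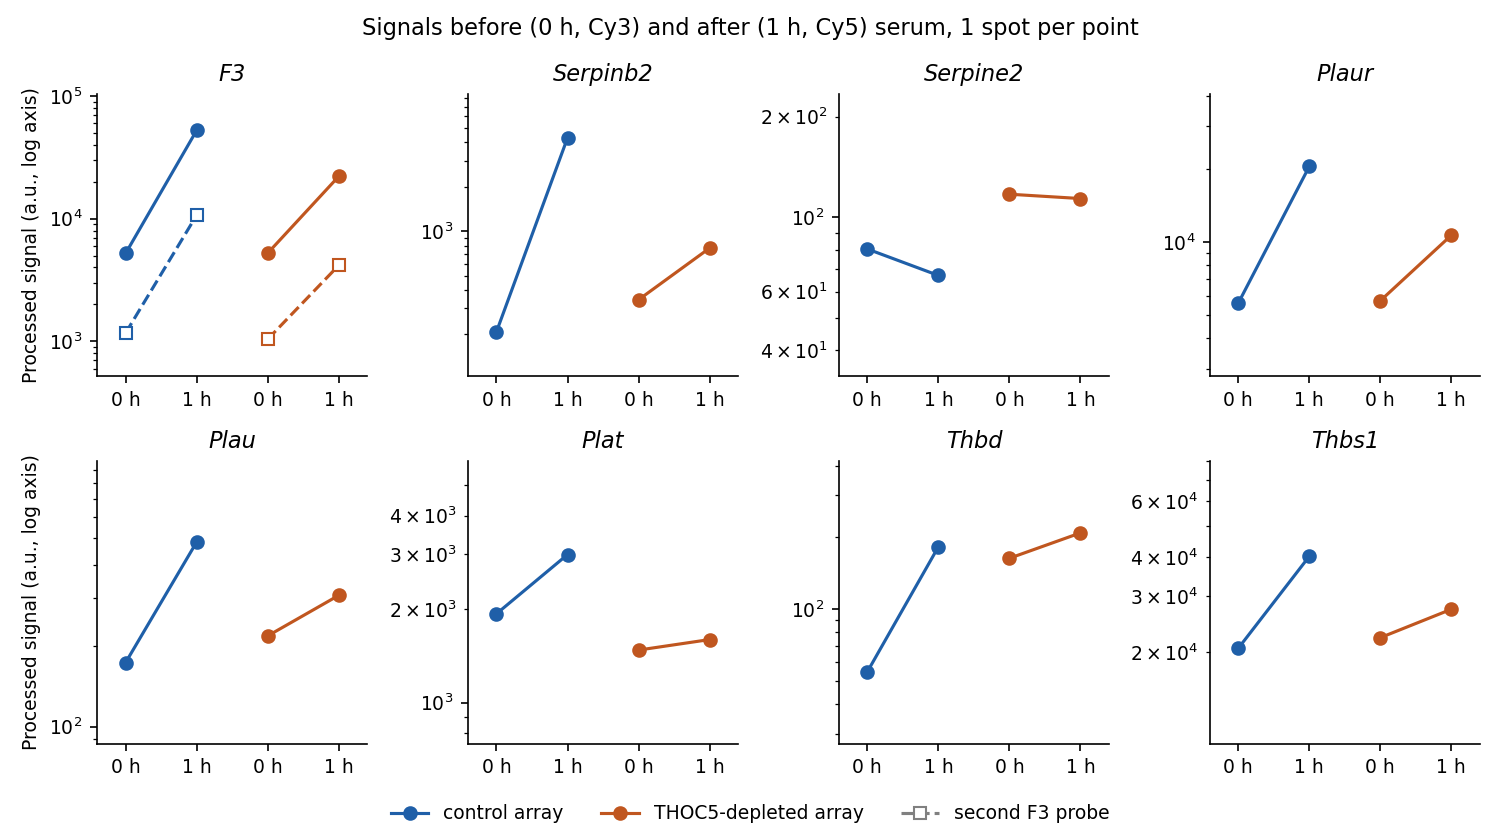
Processed signal (arbitrary units, log axis) of each gene before and after 1 h of serum on the control array (blue) and the depleted array (orange), 1 spot per point, with the second F3 probe as open squares. The line of Serpinb2 runs from 208 to 4291 in control cells but only from 343 to 768 in depleted cells, and the Thbd line starts at 54.8 on the first and at 164 on the second.

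F3, the initiator of coagulation, had the largest serum ratio of the 8 in depleted cells and the next to largest, after Serpinb2, in control cells. Its signal was 5210.0 before and 52468 after serum in control cells, and 5229.5 before and 22121 after serum in depleted cells. The starting signals as deposited, which are not scaled between the arrays, were alike (1.26-fold higher in depleted cells once scaled), and the stimulated signal was lower in the depleted cells. The serum ratio was 10.1 in control cells, rank 28 among the 17199 genes, and 4.23 in depleted cells, rank 27. The fold reduction was 2.38, or 1.25 ± 0.47 on the log2 scale (scanner software error, n = 1 array per condition). The rank of F3 among all genes was thus almost the same on both arrays while its ratio was smaller.

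The second F3 probe gave an independent spot on the same transcript. Its 60 bases are printed because the files place them over 738 bases of mm9, on chr3:121434609-121435346 (plus strand), so that the probe is split by an intron and pairs with spliced RNA, while the first probe lies without a gap on chr3:121437717-121437776, 2370 bases further on.
F3 second probe: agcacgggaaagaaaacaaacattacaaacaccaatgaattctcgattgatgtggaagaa
This probe read 1168 before and 10674 after serum in control cells, and 1039.7 before and 4162 after serum in depleted cells. Its serum ratios of 9.14 and 4.003 differed from those of the first probe by 0.14 and 0.08 on the log2 scale, and its fold reduction of 2.28 by 0.06. Both probes therefore placed the response of F3 in the same range on each array.

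Thbd, the anticoagulant receptor, differed in another way. Its signal was 54.8 before and 183 after serum in control cells, and 164 before and 209 after serum in depleted cells. The signal of unstimulated depleted cells, as deposited, was thus already near that of control cells after serum. Serum ratios of 3.34 for control and 1.28 for depleted cells ranked 152 and 1337 among the 17199 genes. The fold reduction was 2.61 (log2 1.39 ± 0.34). Thbd is best known from endothelium, and the scaled sum of the 6 endothelial markers was 945 in unstimulated control and 1029 in unstimulated depleted cells. Within that list, Vwf was 3.24-fold higher and Cdh5 1.78-fold lower in unstimulated depleted cells, and the part of such cells in the result was not tested. The probe lies on chr2:148230235-148230294 (mm9, minus strand).

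Plau encodes urokinase, the activator that works mainly at the surface of migrating cells. Its signal was 173 before and 485 after serum in control cells, and 217 before and 307 after serum in depleted cells. The ratio was 2.80 with THOC5 present and 1.41 after its depletion, so that Plau passed 2-fold only on the control array. The fold reduction of 1.98 (log2 0.99 ± 0.32) was just short of 2. The probe lies on chr14:21662242-21662301 (mm9, plus strand).

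Plat encodes the tissue-type activator, the main plasminogen activator of blood. Its signal was 1932 before and 2994 after serum in control cells, and 1477 before and 1596 after serum in depleted cells. The ratio came to 1.55 on the control array and to 1.08 on the depleted array, and the fold reduction was 1.43 (log2 0.52 ± 0.29). Neither ratio reached 2-fold, and the ratio in depleted cells lay within its error of 0.20 (log2) from no change. The probe lies on chr8:23892531-23892590 (mm9, plus strand) at the end of the coding sequence, and its part up to the stop codon (in capitals) is printed to show which end of the mRNA was read.
Plat probe up to the stop codon: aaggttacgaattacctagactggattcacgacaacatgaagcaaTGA

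Plaur, the receptor that holds urokinase on the cell, was read far above background in every channel. Its signal was 5585 before and 20479.5 after serum in control cells, and 5716 before and 10655 after serum in depleted cells. As for F3, the starting signals as deposited were alike (1.29-fold higher in depleted cells once scaled) and the stimulated signals differed. The serum ratio was 3.67 in control cells (rank 132) and 1.86 in depleted cells (rank 173), a fold reduction of 1.97 (log2 0.98 ± 0.35). The probe lies on chr7:25260569-25260628 (mm9, plus strand).

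Serpinb2, the gene of the plasminogen activator inhibitor PAI-2, had the largest serum ratio in control cells and the largest fold reduction of the 8. Its signal was 208 before and 4291 after serum in control cells, and 343 before and 768 after serum in depleted cells. The depleted cells thus started higher and ended lower. The serum ratio was 20.6 in control cells, rank 8 of 17199, and 2.24 in depleted cells, rank 93. The fold reduction was 9.20 (log2 3.20 ± 0.51), rank 2 of 17199, and the difference was 6.23 times the software error. The probe lies on chr1:109422046-109422105 (mm9, plus strand).

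Serpine2, the gene of protease nexin 1, which inhibits thrombin and plasminogen activators, gave no such response. Its signal was 80.4 before and 67.0 after serum in control cells, and 117 before and 114 after serum in depleted cells. Its ratios of 0.834 (control) and 0.971 (depleted) lay close together, and the log2 fold reduction of -0.22 ± 0.30 was within its error. Without dye normalization the log2 serum ratios were 0.55 and 0.68, so no direction can be given for this gene. Its 60 bases are printed because they too are split on mm9, over 2618 bases of chr1:79793476-79796093 (minus strand), so that it reads spliced RNA.
Serpine2 probe: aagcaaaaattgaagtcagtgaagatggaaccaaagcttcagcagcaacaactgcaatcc

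Thbs1, a matrix glycoprotein that binds plasminogen as well as clotting proteins and activates TGF-beta, was bright throughout. Its signal was 20553.5 before and 40126 after serum in control cells, and 22209 before and 27308 after serum in depleted cells. This is a ratio of 1.95 with THOC5 and of 1.23 after its depletion, with a fold reduction of 1.59 (log2 0.67 ± 0.30). The ratio in control cells was just under 2-fold. The probe lies on chr2:117952585-117952644 (mm9, plus strand).

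Counted together, 5 of the 8 genes (F3, Serpinb2, Plaur, Plau and Thbd) had a serum ratio of 2 or more in control cells, against 2.4% of the 17199 genes, and 2 of the 8 (F3 and Serpinb2) reached 4, against 0.68%. In depleted cells, 2 of the 8 (again F3 and Serpinb2) had a ratio of 2 or more, against 0.762% of all genes. The median log2 serum ratio of the 8 was 1.61 with and 0.43 without THOC5, beside -0.02 and -0.01 over all genes. A fold reduction of 2 or more was found for 3 of the 8 (F3, Serpinb2 and Thbd), against 1.16% of all genes, and of 1.3 or more for 7 of the 8, against 8.35%. The names behind the first count depended on the processing: with both arrays brought to a common spread of log ratios 2 of the 8 remained (Serpinb2 and Thbd, against 1.04% of all genes), and with normexp and loess Thbd (log2 0.96) gave way to Plaur (log2 1.002). Of the 200 genes that reached the limit of 2, 169 had a serum ratio of at least 2 in control cells.

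The members were therefore also set beside the 413 genes that had a serum ratio of 2 or more in control cells. Of the 5 members among them, 3 had a fold reduction of 2 or more, where 40.9% of the 413 did, and all 5 had one of 1.3 or more, where 86.7% did. The log2 fold reduction of these 5 members had a median of 1.25 and ran from 0.98 to 3.20, beside a median of 0.91 over the 413 genes. Over all 8 members the median was 0.98. With 5 genes, these shares and medians describe the members and do not set them apart from other serum-induced genes.

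**Figure D2:**
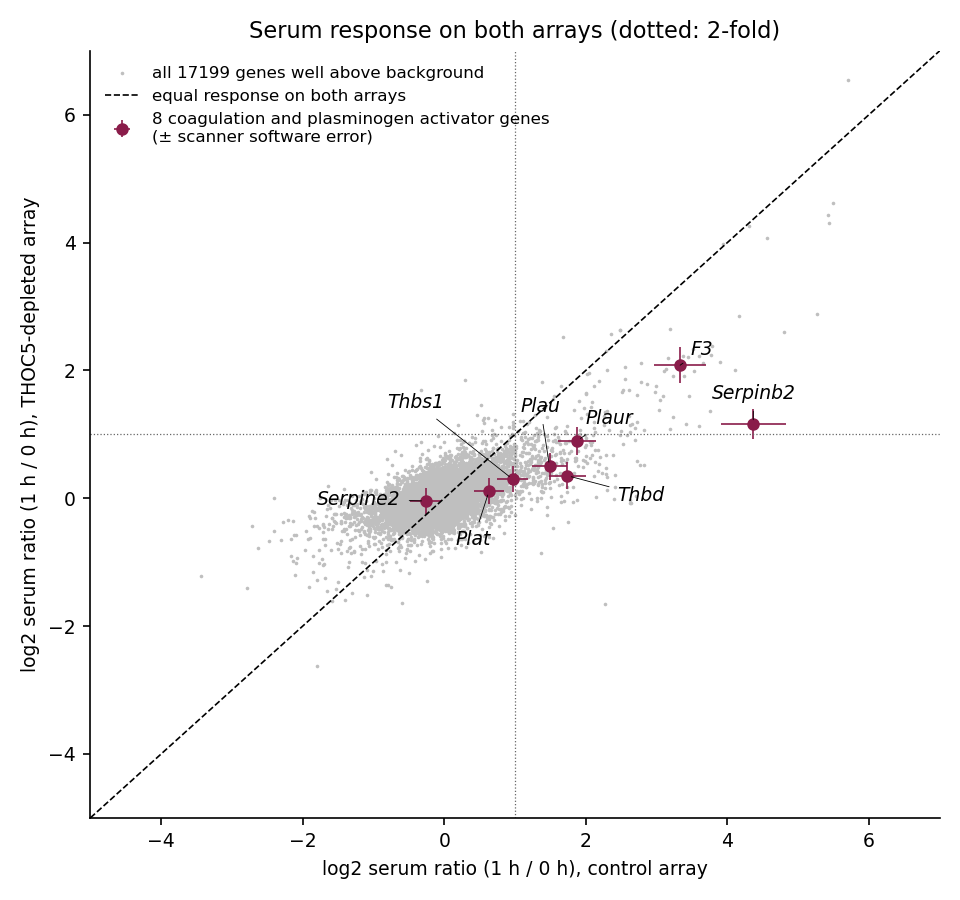
Log2 serum ratio on the control array (horizontal) and on the depleted array (vertical) for 17199 genes (grey) and the 8 members (labelled, with the scanner software's error). Of the 8 members, 7 lie below the dashed line of equal response, F3 and Serpinb2 lie above the dotted 2-fold line on both arrays, and Serpine2 lies near 0.

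A smaller ratio can come from a higher starting signal, a lower stimulated signal, or both, and the members differed in this. After scaling between the arrays (Aquantile), the signal in unstimulated depleted cells was higher than in control cells for 7 of the 8 genes, where this held for 50% of all genes and 74.6% of the 413 induced genes. The median log2 difference was 0.48 over the members, 0.00 over all genes and 0.28 over the induced genes. Thbd passed 2-fold at 3.46-fold higher, and Serpinb2 stood at the edge at 1.99-fold (2 or more: 1 of 8 members, 1.26% of all genes). After serum, the signal was lower in depleted cells for 6 of the 8, where this held for 49.8% of all genes and 80.9% of the induced genes. The median log2 difference was -0.51 over the members, 0.00 over all genes and -0.59 over the induced genes. Not all 8 members are among the induced genes, so these medians do not compare like with like. Without scaling between the arrays the medians were 0.22 (members), -0.26 (all genes) and 0.03 (induced genes) before serum, and -0.78, -0.26 and -0.85 after serum. With scaling, Serpinb2 was 4.61-fold lower and F3 1.90-fold lower by its brighter probe and 2.05-fold lower by its second probe, so that 1 of 8 members passed 2-fold on the brightest probes (1.61% of all genes). Without scaling, 2 members passed it, against 3.02% of all genes.

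For F3, Plaur and Serpinb2 the larger part of the fold reduction was in the stimulated cells. Serpinb2 differed by 1.00 (log2) in unstimulated and by -2.21 in stimulated cells. F3 differed by 0.33 and -0.92, and its second probe by 0.16 and -1.03. Plaur differed by 0.36 and -0.61. For Plat the whole of it lay there after scaling, with -0.08 in unstimulated and -0.60 in stimulated cells. Without scaling between the arrays, Plat differed by -0.39 and -0.91, beside a median of -0.26 over all genes in both.

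For Plau and Thbs1 the order of the parts depended on the scaling between the arrays. Plau differed by 0.58 in unstimulated and -0.41 in stimulated cells (log2) and Thbs1 by 0.39 and -0.28, but without scaling Plau differed by 0.33 and -0.66 and Thbs1 by 0.11 and -0.56. Thbd was the only member among the induced genes whose stimulated signal was not lower in depleted cells, with a log2 difference of 1.79 before and 0.40 after serum. Serpine2 was higher in depleted cells in both channels, by 0.71 and 0.93. Without scaling between the arrays the unstimulated difference was 0.01 for F3 and 0.03 for Plaur, whereas under the alternatives tried that of Thbd stayed between 1.29 and 1.88, and its stimulated difference between 0.19 and 0.47.

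**Figure D3:**
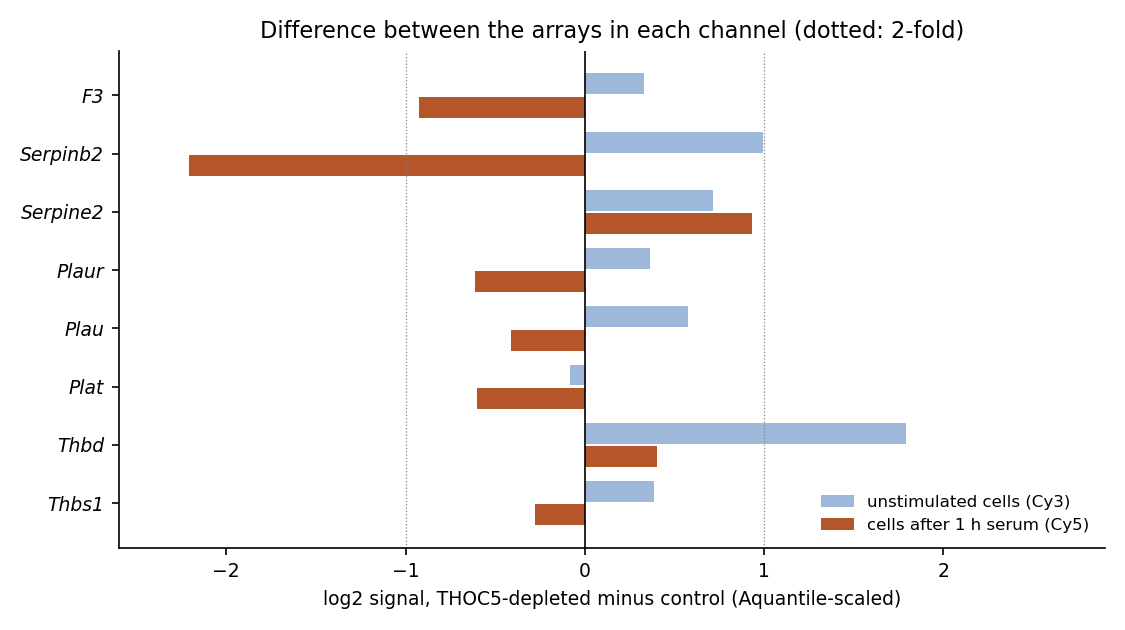
Log2 signal in THOC5-depleted minus control cells for each gene, in unstimulated cells (light bars) and after 1 h of serum (dark bars), after Aquantile scaling, from 1 array per condition. Serpinb2 has the longest bar to the left (-2.21, stimulated cells) and Thbd the longest to the right (1.79, unstimulated cells).

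The rest of the pathway was read from 61 further genes in 5 lists, of which 36 were well above background in every channel and 17 in none. Of these 36, 1 had a serum ratio of 2 or more in control cells, 0 in depleted cells, and 0 a ratio of 0.5 or less on either array. The gene with a 2-fold ratio in control cells was Serpinf2, of the plasminogen system. This is 2.78% of the 36, near the 2.4% of all genes. The 6 measured coagulation factors, the 8 measured anticoagulant genes, the 2 measured protease-activated receptors and the 4 measured thrombospondin relatives and receptors held 0 genes with a 2-fold serum ratio, which in lists of this size is close to that share of all genes. The median log2 serum ratio over the 36 genes was 0.06 on the control array and -0.0020 on the other.

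Serpinf2, the gene of the plasmin inhibitor alpha-2-antiplasmin, gave dim signals of 26.7 and 104 in control cells and 38.7 and 58.3 in depleted cells. Its serum ratio was 3.88 and 1.51, a fold reduction of 2.58 (log2 1.37 ± 0.37). As with Serpinb2, the signal was higher in unstimulated depleted cells (log2 0.68) and lower in stimulated ones (log2 -0.68).

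Genes that work beside F3 and Thbd had small serum ratios. Tfpi, the inhibitor of tissue factor with factor VII, had ratios of 0.961 and 1.04 in the same order (control, then depleted). The thrombin receptor F2r had ratios of 1.12 and 1.05, and F2rl1, a receptor cut by the tissue factor complex, had 1.23 and 0.945. Procr, the receptor that presents protein C to thrombin-bound thrombomodulin, read 3300.4 and 4347 in control and 4089.9 and 7382 in depleted cells. Its ratio was larger without THOC5 (1.81) than with it (1.32), and its stimulated signal was 2.14-fold higher there. Vwf, the carrier of factor VIII, read 17.5 and 20.8 in control and 50.9 and 64.4 in depleted cells, a log2 difference of 1.69 and 1.79 with no 2-fold serum ratio.

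Another 4 dim genes were well above background on the control array and not on the depleted array, so their differences are lower bounds against the dimmest signal called above background. F11, a factor of the contact pathway, was at least 3.91-fold lower in unstimulated and at least 3.95-fold lower in stimulated depleted cells, and F2rl3, a thrombin receptor, at least 3.89-fold and 3.81-fold lower. Tfpi2, a protease inhibitor of the matrix, was at least 3.30-fold and 3.18-fold lower, and Plg, the gene of plasminogen, at least 2.43-fold and 1.78-fold lower. Their control signals were between 23.7 and 52.6. In the other direction, F7, the partner of tissue factor, was well above background on the depleted array alone by its brighter probe (its other probe was not on either array), with signals of 7.64 and 7.83 in control and 13.1 and 13.06 in depleted cells. Serpinc1, the gene of antithrombin, was not well above background in unstimulated control cells (7.15) and was so in unstimulated depleted cells (18.8). After serum, Serpinc1 read 19.1 in control and 27.0 in depleted cells. F7 and Serpinc1 were named after their values were seen, and the values given for each of these 6 genes are from 1 probe.

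**Figure D4:**
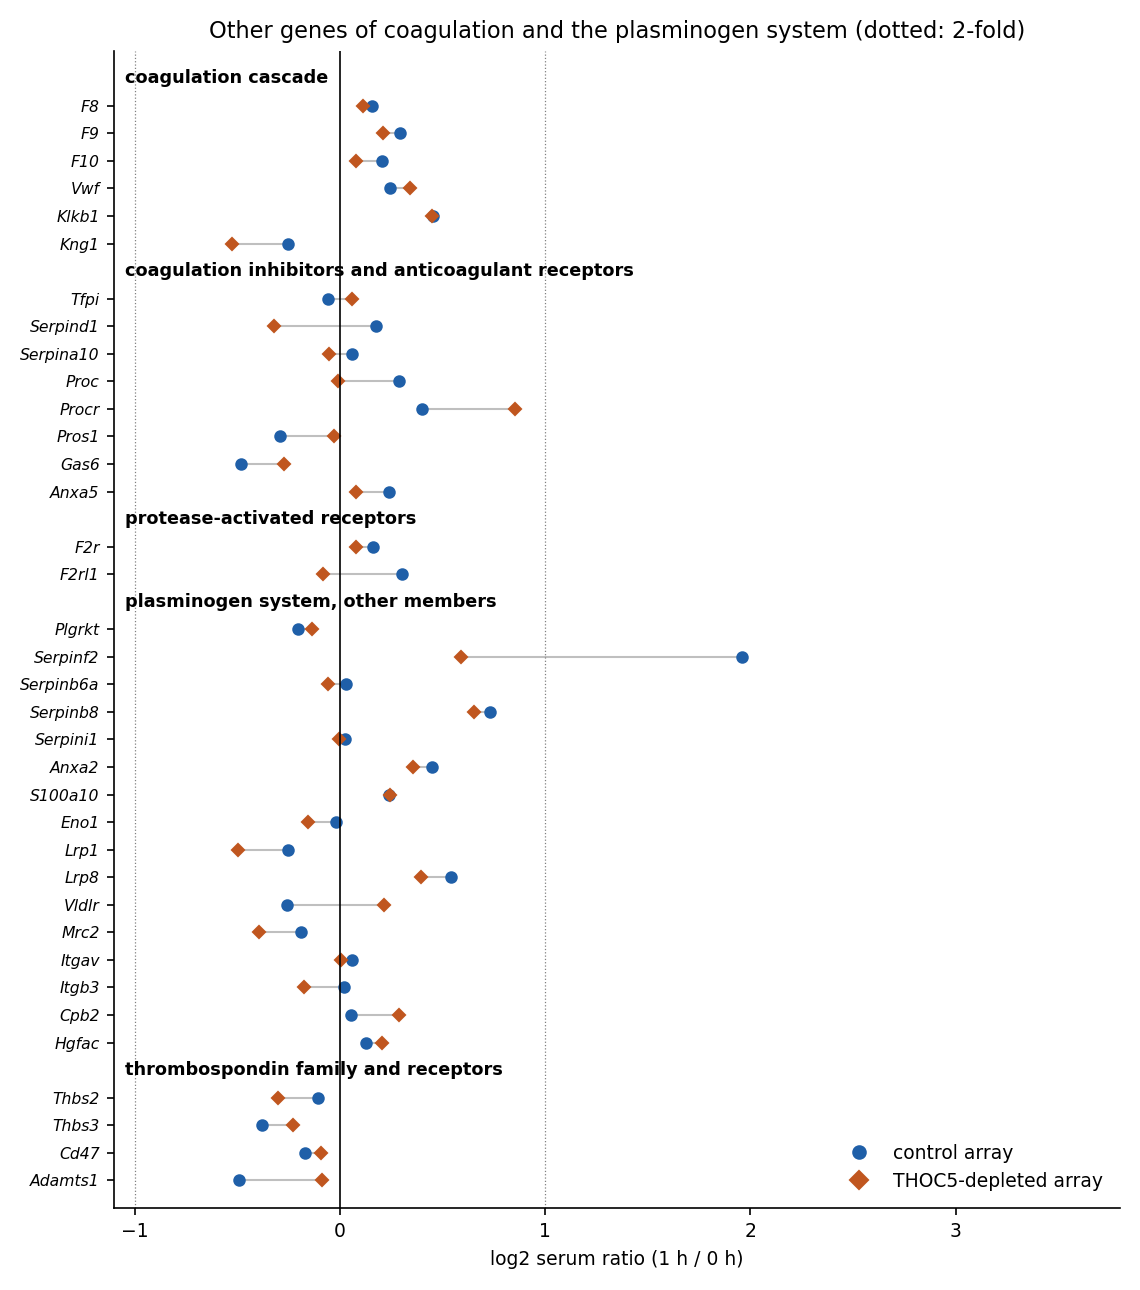
Log2 serum ratio of the 36 further genes with every channel well above background, by list, on the control array (circles) and the depleted array (diamonds). Serpinf2 lies beyond the dotted 2-fold line on the control array, and the other genes lie between the dotted lines on both arrays.

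For each member with a 2-fold response in control cells, up to 3 genes of most similar pattern were taken by Euclidean distance over the log2 serum ratios of both arrays and the log2 unstimulated difference, among 17199 genes. Nearest to F3 were Ereg, which encodes epiregulin (distance 0.18), Rgs16 (0.24) and Csrnp1 (0.26). Nearest to Plaur were Myc (0.15), with serum ratios of 3.95 and 1.98, Rnd1 (0.18) and Bmyc (0.23). Nearest to Plau were Vps37b (0.10), Cyp2c55 (0.19) and Chka (0.19). Thbd had Edn2, Tmem170b and Gnrh1 at 0.29 to 0.34.

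Serpinb2 stood further from the genes named for it, but its list of nearest genes is not complete here. Smad7, an inhibitor of TGF-beta signalling, was at a distance of 0.65 with serum ratios of 16.4 and 3.28, and Errfi1 was at 0.88 with a control ratio of 17.3. Their log2 unstimulated differences were 1.11 and 0.96, close to that of Serpinb2 by the way they were picked. Each of these distances is from 1 array per condition.

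Proximal promoters were available for 4 of the 8 members (F3, Plaur, Serpinb2 and Serpine2; RefSeq, GRCm38.p6). The 250 bases before the start are printed on the coding strand for the 3 induced genes, to show the short motifs that a search on both strands found there: the AP-1 motif TGANTCA, bound by FOS and JUN proteins, and TATAAA (both in capitals). They lie on chr3:121723287-121723536 for F3, chr7:24462233-24462482 for Plaur and chr1:107511173-107511422 for the first of the 2 listed starts of Serpinb2 (all plus strand).
F3 promoter: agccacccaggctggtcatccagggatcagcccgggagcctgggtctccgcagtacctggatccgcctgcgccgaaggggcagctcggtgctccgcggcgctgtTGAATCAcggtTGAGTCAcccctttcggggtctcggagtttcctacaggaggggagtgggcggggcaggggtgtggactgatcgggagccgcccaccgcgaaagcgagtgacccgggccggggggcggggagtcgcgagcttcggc
Plaur promoter: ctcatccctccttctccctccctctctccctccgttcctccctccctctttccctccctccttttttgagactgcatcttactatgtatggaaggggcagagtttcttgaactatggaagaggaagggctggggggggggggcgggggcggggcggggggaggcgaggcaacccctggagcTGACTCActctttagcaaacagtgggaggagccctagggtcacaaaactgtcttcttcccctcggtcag
Serpinb2 promoter: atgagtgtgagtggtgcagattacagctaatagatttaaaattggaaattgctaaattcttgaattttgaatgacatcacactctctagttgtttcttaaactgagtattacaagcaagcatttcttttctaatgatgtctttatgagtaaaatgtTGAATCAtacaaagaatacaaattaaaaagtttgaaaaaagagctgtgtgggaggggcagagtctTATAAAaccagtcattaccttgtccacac
F3 held 2 AP-1 matches, TGAATCA at 146 and TGAGTCA at 135 bases before the start. Plaur held 1 (TGACTCA, 69 bases before the start), and Serpinb2 held 1 (TGAATCA, 94 bases before the start) with a TATAAA 29 bases before the start. The window of Serpine2, chr1:79858666-79858915 (minus strand), held none of the motifs.

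Among 32851 promoter windows of the same length, 6.75% held an AP-1 match and 0.338% held 2 or more, while 12.4% held TATAAA. The CRE motif (TGACGTCA, in 1.55% of windows), the CArG box (1.47%), the EGR motif (GCGTGGGCG, 0.536%) and the NF-kappaB site (3.90%) were found in no member window. A match describes the letters of this window, and binding was not measured here.

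The ratios were also computed under other ways of processing the scanner values. The log2 fold reduction stayed above 0 for 7 of the members and below 0 for Serpine2 in all of the 8 alternatives drawn, of which the series table, the floor of 50 and the kept outlier spots left every member's value as it was. Serpinb2 lay between 2.71 and 3.25, Thbd between 0.96 and 1.46, Plaur between 0.60 and 1.11, Plau between 0.78 and 1.05, and Thbs1 between 0.54 and 0.78. F3 moved most, from 1.25 to 0.37, when the log ratios of the depleted array were scaled to the spread of the control array. In that setting the whole depleted array is stretched, its interquartile range of log2 ratios being 0.27 beside 0.39 on the control array.

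**Figure D5:**
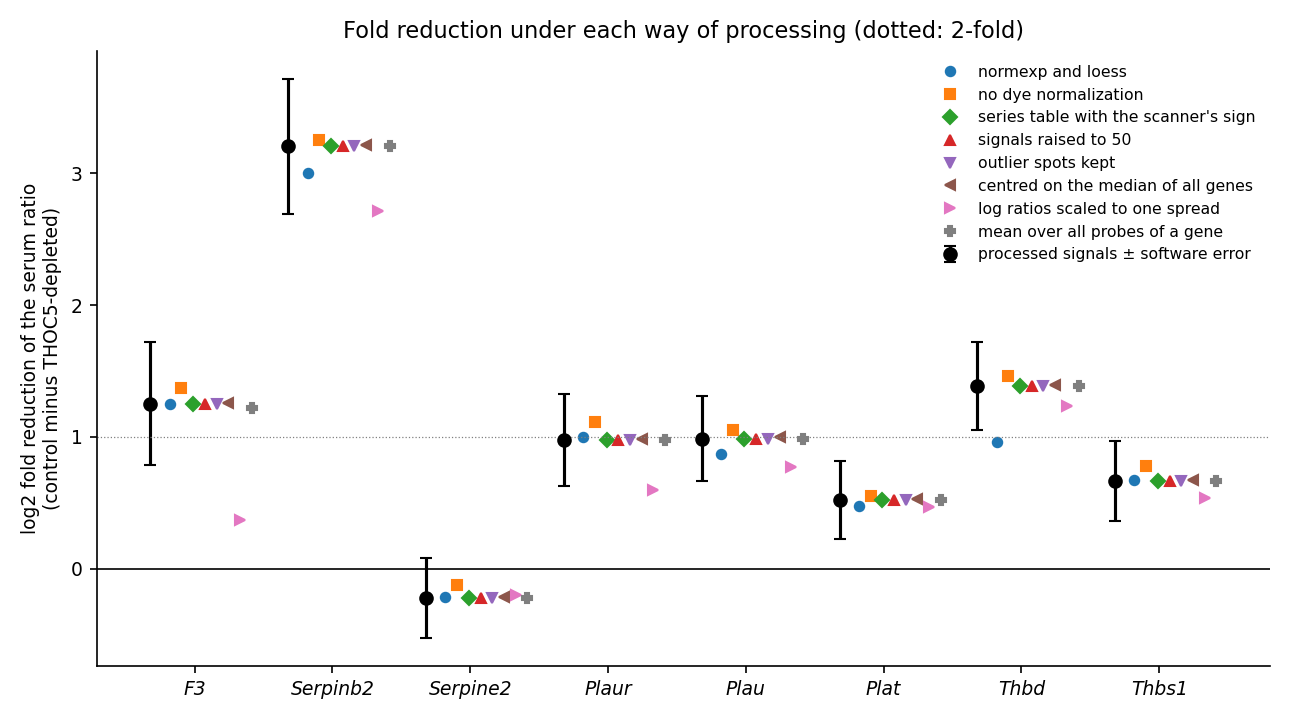
Log2 fold reduction of the serum ratio for each gene, from the processed signals with the scanner software's error (black) and under 8 other ways of processing (colored symbols). Serpinb2 stays at 2.71 or above throughout, and F3 falls to 0.37 when the arrays' log ratios are scaled to the same spread.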

How the data were processed

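The authors hybridised 2 dual-color Agilent arrays and deposited the scanner output of Agilent Feature Extraction 10.7.3.1, with 60-base probes placed on mm9. Per the file headers, the processed signals deposited by the authors are spot intensities corrected for background and spatial trend, with linear and LOWESS dye normalization, and the deposited log ratios are log10 values of Cy5 over Cy3 with a software error. The deposited series table holds these log10 ratios without sign. It served as an alternative with the sign taken from the scanner output, which repeats the main ratios by construction.

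Outlier spots (239 and 234) were left out, and a gene with several probes was read from the brightest. Serum ratios used processed signals as deposited, and differences between arrays used limma 3.58.1 (Aquantile; R 4.3.3, Python 3.11.15). Errors of log10 ratios were converted to log2 and combined in quadrature for fold reductions. For 268 probes printed as 10 spots and well above background, the median SD of the log2 ratio was 0.03 on both arrays, but precision is limited by having 1 array per condition. Named genes were all members, genes of the lists past 2-fold, F2r, F2rl1 and Tfpi, and up to 3 nearest genes of each induced member; 1 gene of the lists is not reported here. The members and lists were chosen with earlier results of these data known. Alternatives were normexp with an offset of 50 and loess, no dye normalization, the series table, a floor of 50, all probes, outliers kept, centring, a common spread, other folds and other scaling between arrays. The scripts were tested on simulated data.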

Additional observations from a re-analysis of the deposited data

Results flagged for a closer look

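Of 44 genes checked (members and further pathway genes with every channel well above background), 3 had serum ratios on opposite sides of no change in the conditions, each by more than a log2 ratio of 0.06, and these differences were not tested. That limit is smaller than the software errors given here, and the share of all genes past it was not counted. Serpind1, the gene of heparin cofactor II, had a log2 serum ratio of 0.18 ± 0.29 with THOC5 and -0.32 ± 0.39 after its depletion. F2rl1 had 0.30 ± 0.23 with THOC5 and -0.081 ± 0.26 after its depletion. Vldlr, a receptor that clears protease and inhibitor complexes, had -0.26 ± 0.21 and 0.22 ± 0.20 in the same order. Both values of Serpind1 and the depleted value of F2rl1 lay within their error of no change. None of the 8 members was among the 3 genes.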

How the results depend on the processing

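Without dye normalization, the median log2 serum ratio of all genes moved to 0.83 on the control and 0.76 on the depleted array, and that of the members to 2.42 and 1.23. In that setting 6 members passed a 2-fold serum ratio in depleted cells, against 16.2% of all genes, and 5 had a fold reduction of 2 or more, against 1.47%. When both arrays' log ratios were given the same spread, the median log2 fold reduction was 0.57, and F3 (0.37) and Plaur (0.60) moved by more than their error. Without scaling between the arrays, 2 members were 2-fold or more lower in stimulated depleted cells, against 3.02% of all genes. A fold of 4 left 2 members on the control (0.68% of all genes) and 1 on the depleted array (0.174%), and a fold reduction of 1.3 or 1.5 gave 7 (8.35%) or 6 members (3.77%). Of 256 recomputed values of single members, 149 changed, 126 by less than their error and 23 by more, and the rest came from settings that do not touch these probes. The sign changed in 3, all of them serum ratios of Serpine2 (to 0.55 and 0.68 without dye normalization and to 0.0044 in depleted cells with normexp and loess). No paired analysis was possible because each condition had 1 array. Each probe was read from 1 spot per array, which limits the precision of every value; Thbd, a dim gene, moved to a log2 fold reduction of 0.96 with normexp and loess.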

Other observations

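The members' neighbours on the chromosome, from the order of genes in the RefSeq annotation, had no serum ratio of 2 or more on either array where they were measured. Cd93, next to Thbd, had serum ratios of 0.629 with THOC5 and 0.846 after its depletion, where Thbd had 3.34 and 1.28. Abcd3, next to F3, had 0.838 and 1.09, and Vcl, next to Plau, had 1.34 and 0.999. Serpinb7 and Serpinb10, on both sides of Serpinb2, were not well above background in any channel.

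The 2 probes of F10, singled out after their values were seen, disagreed in signal. One read 136727 and 157534 in control and 146608 and 154847 in depleted cells, and the other was not well above background in any of the 4 channels. The F10 serum ratios of 1.15 and 1.06 therefore rest on the first probe, and which of the probes reads F10 was not tested. F10 is counted among the 6 coagulation factors on that probe alone.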
